A study of Mus musculus with 34 samples.

Results

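The genes described here are the mouse Zfp genes, zinc finger protein genes whose symbol is Zfp followed by a number. They were followed in ribosome footprints and in RNA of hippocampus, hippocampal primary culture and embryonic stem cells. The deposited tissue tables listed 243 of them among 11531 genes, and 55 of the 243 had a mean signal of at least 1 both in footprints and in RNA, as did 7103 genes in all. The culture table listed 222 (69 at 1 or more in both kinds) and that of the stem cells listed 279 (91 in both kinds). In total 301 were listed in at least 1 source and 202 in every source. Of the 55 tissue genes, 54 were listed in the culture and 50 in the stem cells.

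Hippocampi came from C57BL/6N mice that were caged singly and handled daily before the experiment. Controls received no stimulus. The conditioned mice explored a chamber, received an electric shock to the feet there, and were sampled at 5, 10 and 30 min and at 4 h; this contextual fear conditioning is a learning task that depends on the hippocampus. Each of the 5 groups had 3 footprint and 3 RNA libraries, which makes 30 tissue libraries of 34. Age, sex and whether the 3 stand for separate mice remain not given in the sources used here. The p-values therefore reflect spread between libraries that may be technical. The hippocampal primary culture (C57BL/6N, no stress) and the stem cells (line A3-1, grown with serum and LIF and exposed for 48 h to a siRNA against luciferase, a control target) had 1 footprint and 1 RNA library each. Those 2 sources therefore have no replicates and no test. All lysates contained cycloheximide, which holds ribosomes on mRNA.

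The C2H2 zinc finger is a small fold held by a zinc ion, and proteins with runs of such fingers form the largest family of DNA-binding proteins in mammals. Many carry a KRAB domain, which recruits the corepressor Trim28 and through it the histone methyltransferase Setdb1 to silence chromatin, transposons above all. Many of these genes arose by duplication and lie in clusters. Others in the family are not repressors of this kind: some bind RNA, mature ribosomes or ligate ubiquitin. Because sequence is shared between duplicated genes, and how the authors assigned reads that match several genes is unknown here, the values of close paralogs are uncertain.

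Libraries held 14240563 to 30480009 reads on listed genes in tissue footprints and 16814796 to 25515210 in tissue RNA. The culture held 18771379 and 7282564, and the stem cells 65147288 and 16686790. The median Zfp gene listed held 125 to 272 reads in a tissue footprint library. Cell identity followed the labels: all 6 pluripotency markers were listed in the stem cells and only Sox2 in tissue, while all 4 neuronal markers were listed in tissue and culture and none in the stem cells. The choroid plexus markers, of an epithelium that borders the hippocampus, summed to a mean RNA signal of 600 in tissue libraries numbered 1, 490 in those numbered 2 and 93.6 in those numbered 3. In bulk tissue, fewer cells of a type and less RNA per cell cannot be told apart.

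Zfp mRNAs were a small share of the reads, and a smaller share in footprints than in RNA. In tissue, the 243 listed genes took 0.766 to 0.863% of RNA reads (median 0.817%, 15 libraries) and 0.309 to 0.356% of footprint reads (median 0.332%). No library of one kind overlapped a library of the other. The 222 genes listed in the culture took 0.671% in RNA and 0.364% in footprints. The 279 listed in the stem cells took 0.703% and 0.551%, so the 2 shares lay closest together there. The listed genes differ between sources, so these shares do not compare the same genes. The same difference showed at the threshold of 1. In RNA 58.0% of the listed Zfp genes reached it, against 69.9% of all genes, but in footprints 23.5% reached it, against 68.5%. Of the 141 that reached it in RNA, 55 (39.0%) also reached it in footprints, against 88.1% of all genes. Zfp444 and Zfp334 lay just inside the threshold, with a mean footprint signal of 1.01 over 15 libraries, and Zfp462 (0.901) and Zfp704 (0.876) just outside.

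The highest RNA signals among Zfp genes of the hippocampus were those of Zfp365, Zfp644, Zfp106, Zfp148 and Zfp706. Zfp365 encodes a protein first described as a partner of DISC1 and is best known from brain. Its RNA signal was 40.6, 34.7 and 38.5 in the 3 control libraries, and its footprint signal 9.14, 9.42 and 9.94. Zfp644, whose product works with the histone methyltransferases G9a and GLP, had RNA signals of 30.9, 29.1 and 32.5 but footprint signals of only 3.27, 2.61 and 3.00. Zfp106, an RNA-binding protein needed for motor neuron and muscle function in mice, had 28.2, 26.2 and 26.6 in RNA and 4.70, 4.73 and 4.34 in footprints. In both genes the footprint signal stayed far under the RNA signal in every control library. Zfp148, a transcription factor of GC-rich promoters, had 23.7, 22.3 and 24.7 in RNA and 5.60, 5.19 and 6.02 in footprints. Zfp706, a very small zinc finger protein, was the exception among the 5. Its RNA signal of 13.8, 14.2 and 19.2 stood beside a footprint signal of 13.7, 15.3 and 17.9. Signals are whole reads divided by a number shared by all genes of a library, so they are not scaled to transcript length. These amounts are therefore set side by side within a gene and not ranked between genes as molecules.

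**Figure D1:**
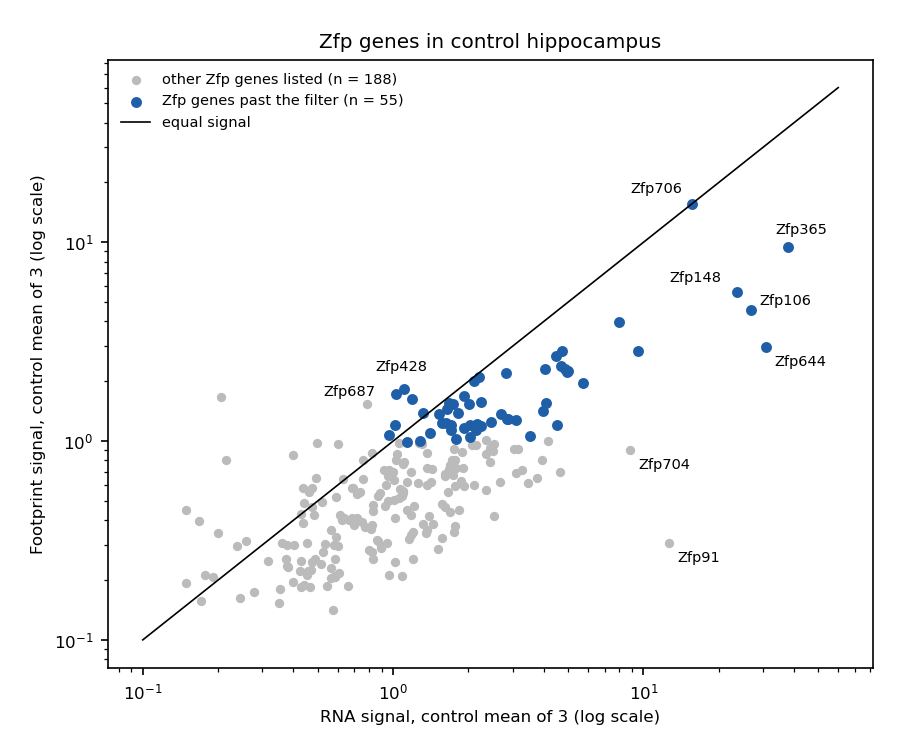
Footprint signal against RNA signal of each listed Zfp gene in control hippocampus (means of 3 libraries, both axes on a log scale; line, equal signal). The 55 genes past the filter are in blue and the other 188 in grey; Zfp706 lies on the line while Zfp644, Zfp106, Zfp148, Zfp365 and the unfiltered Zfp91 and Zfp704 lie far below it.

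Promoters are shown for 2 members whose RNA signal differed between tissue and stem cells in opposite directions. Zfp365 had a mean RNA signal of 37.9 in control tissue, 10.3 in the culture and 1.61 in the stem cells, a ratio of 23.6 between tissue and stem cells. Zfp281, which encodes a transcription factor of the pluripotency network, ran the other way, with 4.03, 2.05 and 8.07. Tables of the 3 sources were normalised separately, so these ratios rest on each table's own scaling. The RefSeq promoter sequences (build GRCm38.p6) below give the 250 bases before the transcription start, with each CG dinucleotide in capitals. That of Zfp365 is chr10:67912663-67912912 on the minus strand and that of Zfp281 is chr1:136624651-136624900 on the plus strand.
Zfp365: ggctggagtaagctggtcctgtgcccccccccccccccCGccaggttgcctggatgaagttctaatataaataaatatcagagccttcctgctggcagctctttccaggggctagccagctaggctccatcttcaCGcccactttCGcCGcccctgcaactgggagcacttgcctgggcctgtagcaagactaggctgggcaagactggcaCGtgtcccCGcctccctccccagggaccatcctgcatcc
Zfp281: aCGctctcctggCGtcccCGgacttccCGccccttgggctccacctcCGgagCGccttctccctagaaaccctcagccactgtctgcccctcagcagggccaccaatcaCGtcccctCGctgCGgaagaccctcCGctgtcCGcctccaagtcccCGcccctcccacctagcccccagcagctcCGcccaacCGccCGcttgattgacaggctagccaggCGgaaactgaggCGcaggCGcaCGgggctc

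The Zfp365 window holds 6 CG dinucleotides and that of Zfp281 holds 19. Over windows of 300 bases (50 after the start included), 45 of the 55 members matched a RefSeq promoter by symbol. Of those, 30 (66.7%) had a GC content above 50% and an observed to expected CG ratio above 0.6, against 33.9% of the 27025 promoters in the table. Their median GC content was 59.7%, against 52.7%. Zfp365 was among the 15 that did not meet both limits, with a CG ratio of 0.289. Exact motif letters were searched on both strands. TATAAA (the TATA box) was in 6 of the 45 windows, that of Zfp365 included (13.3%, against 14.2% of all), and CACGTG (an E-box) in 5 (11.1% against 7.24%), again with Zfp365 among them. The cAMP response element TGACGTCA was in 1 (2.22% against 1.88%). CCGGAAGT (an ETS site) was in 4 (8.89% against 4.0%). A match is a description of these letters only. Unlike the 55, the 27025 promoters were not filtered on signal in hippocampus. Differences from them therefore cannot be assigned to being a Zfp gene. Of all Zfp genes listed in tissue, 197 matched a promoter and 112 of these (56.85%) met both limits on GC and CG. Where a gene had several starts, the first listed was used.

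Relative to their RNA, most of the Zfp genes past the filter carried fewer footprints than the median gene of the hippocampus. It is unknown which part of each transcript was counted in footprints and which in RNA. Whether a low ratio stands for fewer ribosomes on an mRNA was therefore not tested. The ratio of footprint to RNA signal is given as log2 with each library centred on its median gene, so 0 is the median gene, and same-numbered footprint and RNA libraries were set against each other. The 55 had a median of -0.71 (quartiles -1.10 and -0.16; the median over the 3 control replicates varied with an SD of 0.058), against 0.08 for all 7103 genes. With a pseudocount of 1 the medians were -0.43 and 0.06. Of the 55, 48 (87.3%) lay below 0, against 45.9% of all genes. By limma, 39 of the 55 were below the median gene (Benjamini-Hochberg adjusted p under 0.05; 34.7% of all genes tested were) and 5 were above it (41.7% of all genes). This list of 55 was itself cut on footprints, so it left out Zfp genes with few of them. Over the 141 Zfp genes that reached a signal of 1 in RNA, whatever their footprints, the median was -1.12 with 134 below 0, against -0.05 for all 8061 such genes. Over all 243 listed it was -0.94, against 0.06.

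Among the 55 the lowest ratio belonged to Zfp644, at -3.19, -3.45 and -3.41 in the 3 controls. Its level of -3.35 (SE 0.10, limma adjusted p = 2.29e-19) is 0.0981 times that of the median gene and ranked 8 from the bottom of 7103 genes. Zfp106 followed at -2.53, -2.44 and -2.59, a level of -2.52 (SE 0.05, adjusted p = 3.17e-22) and rank 40. Their replicates did not overlap. Next came Zfp148 (-2.04), Zfp365 (-1.96) and Zfp131 (-1.88), the last a BTB domain transcription factor. These neighbours in the order lay close together, and the controls of Zfp365 (-2.10 to -1.85) overlapped those of both others. Thus 4 of the 5 Zfp genes with the highest RNA signal were also 4 of the 5 with the lowest ratio among the 55. Zfp91 (-5.33) and Zfp704 (-3.27), outside the 55 for their few footprints, were also far below the median gene.

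At the other end, 7 of the 55 had a level above that of the median gene and 5 of these passed the test. Zfp687 had 0.93, 0.84 and 0.56 in the 3 controls, a level of 0.77 (SE 0.11, limma adjusted p = 1.32e-06). It encodes a partner of Zfp592 in a transcriptional complex with Zmynd8, and Zfp592 itself was at -0.31. Zfp428 was also at 0.77 (SE 0.14), with controls of 0.70, 0.61 and 1.00 that overlapped those of Zfp687. Zfp777, a KRAB gene, was at 0.48 (SE 0.09, adjusted p = 6.39e-05), Zfp142 at 0.28 (adjusted p = 0.0341) and Zfp398 at 0.19 (adjusted p = 0.0403). The last 2 have the smallest margin, and their RNA signals (1.02 and 0.964 in controls) were the lowest of the 55 together with that of Zfp687 (1.03). With library totals in place of the median gene, Zfp142 (adjusted p = 0.115) and Zfp398 (0.227) no longer passed by limma. Zfp142 was also lost without control replicate 1 (0.142) or 2 (0.212), and Zfp398 without control replicate 2 (0.311) or 3 (0.0893). The other 3 passed in each of these settings. The 2 that did not pass were Zfp637 at 0.11 (adjusted p = 0.508) and Zfp706, the exception above, at 0.04 (SE 0.19, adjusted p = 0.874).

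**Figure D2:**
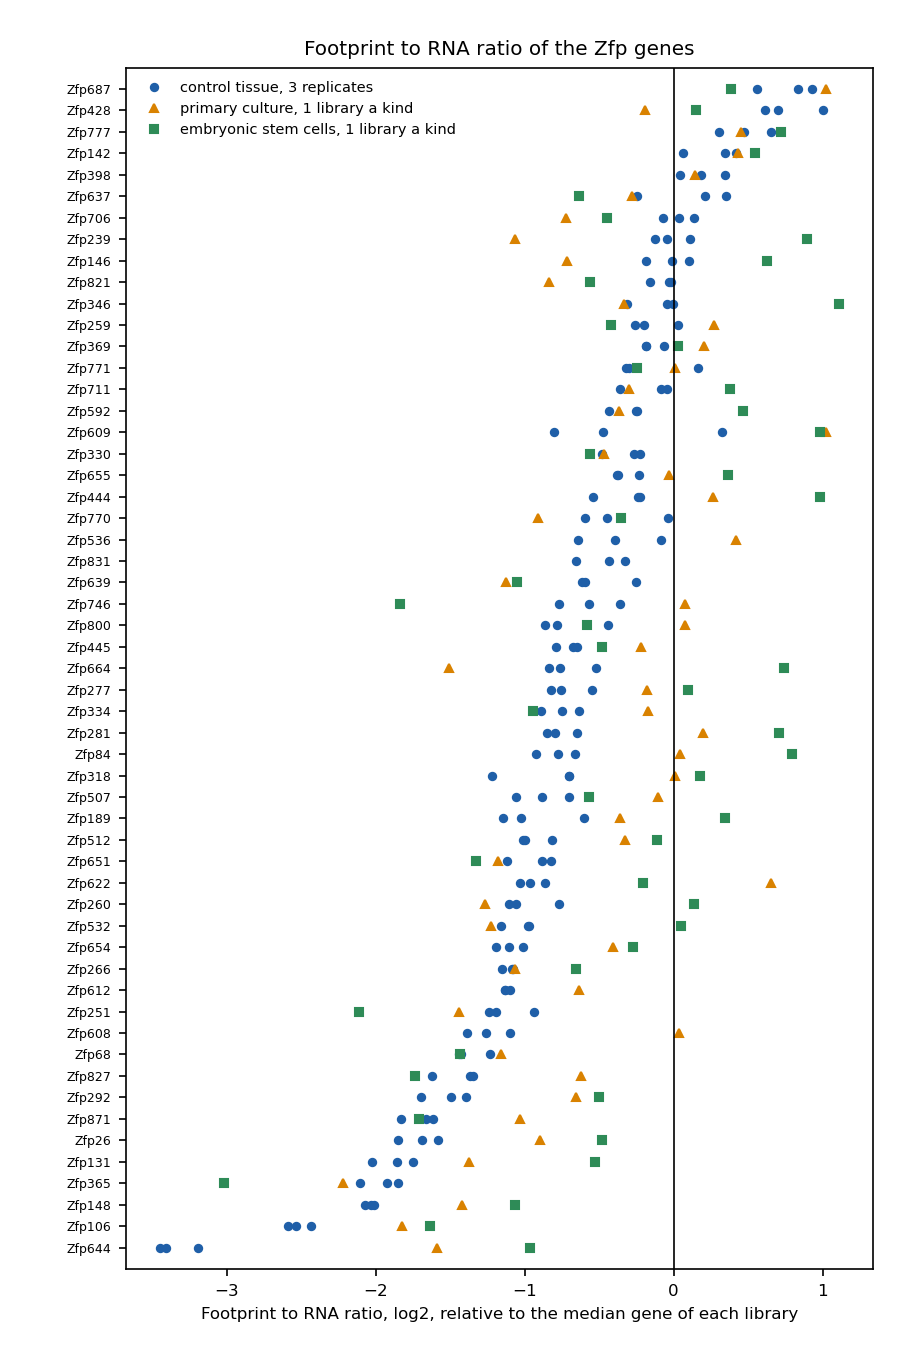
Footprint to RNA ratio (log2, relative to the median gene of each library) of each of the 55 Zfp genes, ordered by its level in control tissue; circles are the 3 control replicates, triangles the culture and squares the stem cells. Most circles lie left of 0, Zfp644 stands furthest left at -3.45 to -3.19, and many squares lie to the right of the circles of the same gene.

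Members with more RNA had lower ratios. Among the 141 Zfp genes at a mean RNA signal of 1 or more, the median ratio was -0.99 in the 83 genes with a signal of 1 to 2 (all genes of that range, 0.07). It was -1.29 in the 34 genes at 2 to 4 (all genes, -0.01), where all 34 lay below 0. In the 24 genes at 4 or more it was -1.61 (all genes, -0.18). The Zfp genes were lower than all genes in each range, and the gap widened from the first range to the last. Across the 55 genes the ratio and log2 RNA signal had Pearson's r of -0.80 (Spearman's rho -0.81, n = 55 genes, which share libraries). RNA is the denominator of the ratio, and the filter on footprints removes genes with low RNA and low ratio, so part of this value is built in.

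Genes with known roles outside DNA binding had these ratios. Zfp622, the counterpart of a yeast factor in the maturation of the large ribosomal subunit, was at -0.95 ± 0.09 (SD, n = 3). Zfp259, better known as ZPR1, was at -0.14 ± 0.15, and Zfp346, a protein that binds double-stranded RNA, at -0.12 ± 0.17. Zfp598, a ubiquitin ligase that acts on collided ribosomes, was under the filter (RNA signal 0.633) with a ratio of 0.07 ± 0.54. The widest departure of any listed Zfp gene in tissue was that of Zfp91, a ubiquitin ligase. Its RNA signal was 12.7, 12.9 and 12.3 in the controls and its footprint signal 0.306, 0.317 and 0.298. That is a ratio of -5.33 ± 0.013 (SD, n = 3), or 0.0249 times the median gene, and it was left out of the 55 by its footprints. Zfp704 (-3.27 ± 0.27) was left out in the same way. Of the 30 genes fixed for their known roles, 24 were listed in a table and 13 were among the 55.

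The 3 sources were compared to ask whether the low ratio holds outside brain tissue. It was lowest in tissue, higher in the culture and highest in the stem cells. Over the same 202 Zfp genes listed in all 3 sources, the median was -0.96 in control tissue, -0.53 in the culture and -0.41 in the stem cells. All 8760 genes listed in every source had 0.01, 0.03 and -0.01. Over the 30 Zfp genes at 1 or more in both kinds in every source the medians were -0.83, -0.56 and -0.39. In all 3 sources most Zfp genes lay below the median gene: 183 of the 202 in tissue, 150 in the culture and 130 in the stem cells. With each source's own filter in both kinds the medians were -0.33 in the culture (69 genes) and -0.22 in the stem cells (91 genes). Culture and stem cells have 1 library a kind, so the difference between sources was not tested.

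**Figure D3:**
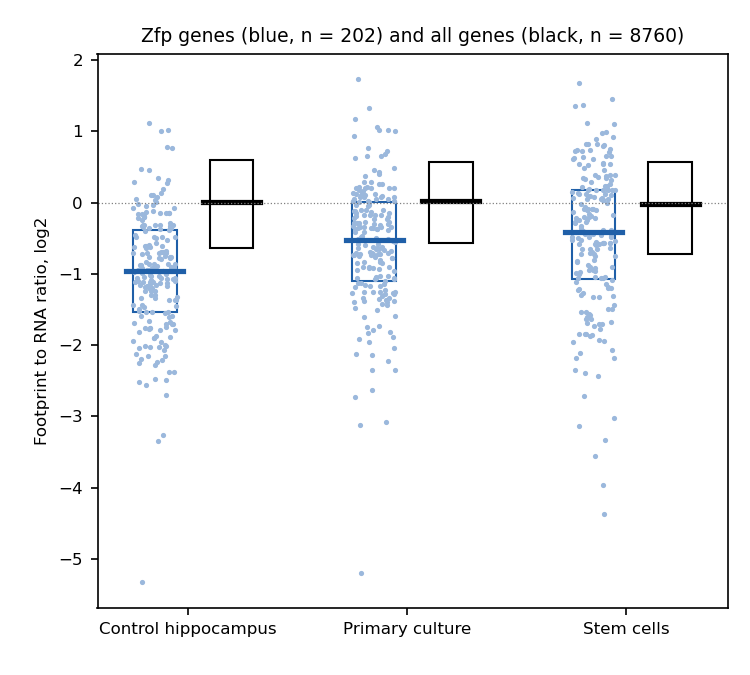
Footprint to RNA ratio (log2, relative to the median gene) in 3 sources for the same 202 Zfp genes (blue points with median and quartile box) and median and quartiles of the same 8760 genes (black). The Zfp median lies at -0.96, -0.53 and -0.41 from left to right, while that of all genes stays within 0.03 of 0.

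Gene by gene, 33 of the 50 tissue members listed in the stem cells had a higher ratio there than in control tissue (66%, against 41.9% of all genes of the tissue filter). The median difference was 0.49, against -0.17 for all genes. Most members had a low ratio in tissue, and the genes they are set against here were not matched to them on that ratio. A difference of more than 1 log2 unit upward was seen in 14 of the 50, against 10.4% of all genes, and 2 of the 50 fell by more than 1 unit, against 13.4%. The 95% counting interval of the stem cell value lay above all 3 control replicates for 28 genes, below all 3 for 9 and overlapped them for 13. Over all genes of the tissue filter it lay above for 30.2% and below for 44.7%. In the culture, 34 of 54 were higher than in tissue (63%, against 42.5%), 4 by more than 1 unit (2.53% of all genes), and the interval lay above all 3 controls for 28 genes, below for 10 and overlapped them for 16. Over all genes it lay above for 21.3% and below for 31.8%. In 9 of the 50 the 3 controls were all below the median gene and the stem cell interval above it (18%, against 7.7% of all genes), and in 5 of the 54 the culture interval was (9.26% against 2.75%). Of the members with all 3 controls below, these are 23.1 and 11.9%, against 18.8 and 6.81% over all such genes. The order of the genes was partly shared: across members the ratio in tissue and in stem cells had Pearson's r of 0.56 (n = 50), and that in tissue and culture 0.63 (n = 54). For all genes past the filter in both sources these values were 0.62 and 0.86.

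Zfp644, lowest of the 55 in tissue, had the largest difference of the 50 between tissue and stem cells. Its ratio was -1.59 in the culture and -0.96 (95% counting interval -1.04 to -0.88) in the stem cells, 2.39 above control tissue. There its RNA signal was 8.90, against 30.8 in tissue, while its footprint signal was 5.21, against 2.96. Zfp84 went from -0.79 ± 0.13 (SD, n = 3) in tissue to 0.80 in the stem cells, and Zfp281 from -0.77 ± 0.10 to 0.71. For Zfp281 the footprint signal went from 2.31 to 15 and the RNA signal from 4.03 to 8.07, so both were higher in the stem cells and footprints by the wider margin. Zfp609, a nuclear regulator of neural progenitors, was at -0.32 ± 0.58 in tissue and 0.98 in the stem cells. Zfp292 was at -1.53 ± 0.15 and -0.50. Zfp106 kept a low ratio in every source (-2.52, -1.82 in the culture and -1.63 in the stem cells) although its RNA was the highest of any Zfp gene in the stem cells (57.9).

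The largest differences of the 50 in the other direction were those of Zfp746, Zfp365 and Zfp251. Zfp746, known as PARIS, a repressor of the PGC-1alpha gene and a parkin substrate, was at -0.57 ± 0.21 (SD, n = 3) in tissue, 0.08 in the culture and -1.84 in the stem cells. Zfp365 was at -1.96 ± 0.13, -2.22 and -3.02 (95% counting interval -3.30 to -2.74). Zfp251 was at -1.12 ± 0.16, -1.44 and -2.11. All 3 had low signal in the stem cells (footprint signals of 0.239, 0.226 and 0.207), under the filter of 1. Under the filter in tissue but present in stem cells were genes that moved the other way. Zfp462, a chromatin regulator of pluripotent cells, was at -1.37 ± 0.21 in tissue, 0.10 in the culture and 0.82 in the stem cells. Zfp207, which assists Bub3 at the spindle, was at -1.55 ± 0.15, -0.63 and 1.68, at RNA signals below 1 in all 3 sources. Zfp704 (-3.12 and -3.96) and Zfp91 (-5.19 and -4.37) remained far below the median gene in culture and stem cells too.

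The stem cell table listed 56 Zfp genes that the tissue table did not, and 51 of them were in no other table. The highest Zfp ratio there was that of Zfp42, the pluripotency marker Rex1, at 2.39 (95% counting interval 2.34 to 2.44), with an RNA signal of 15.4 and a footprint signal of 91.9. It was followed by Zfp296 (2.26), also known from pluripotent cells, and by Zfp574 (1.36), which was at 1.00 ± 0.14 (SD, n = 3) in tissue. Zfp42 and Zfp296 were not in the tissue or culture tables. Zfp568, a KRAB repressor of an Igf2 promoter, had an RNA signal of 12.8 and a ratio of -0.36 in the stem cells. The lowest among stem cell genes past the filter were Zfp870 (-2.07), Zfp871 (-1.71) and Zfp646 (-1.63), whose tissue values were -1.77, -1.70 and -1.89. Among the 69 culture genes at 1 or more in both kinds the highest were Zfp609 (1.02), Zfp622 (0.65) and Zfp777 (0.45), and the lowest Zfp365 (-2.22), Zfp106 (-1.82) and Zfp397 (-1.74).

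Trim28, the corepressor that KRAB zinc finger proteins recruit, lay above the median gene in every source, and Setdb1 did so in both cell sources. The ratio of Trim28 was 0.99 ± 0.06 (SD, n = 3) in control tissue, 0.72 in the culture and 0.81 in the stem cells. Its RNA signal was 4.65 in control tissue and 158 in the stem cells, and its footprint signal 9.01 and 315. That of Setdb1 was -0.15 ± 0.09, 0.53 and 0.34, with RNA signals of 1.69, 1.68 and 12.7. Of the 16 corepressor genes listed for this pathway, 15 were in the tissue table and 7 of these lay above the median gene. In the culture 11 of 15 did so and in the stem cells 13 of 16. The medians were -0.07, 0.53 and 0.49. Other members of the list lay far below the median gene in tissue. Cbx5, an HP1 protein, was at -2.06, -1.93 and -1.87 in tissue, culture and stem cells. Chd3, a chromatin remodeller of the NuRD complex, was at -2.06, -1.35 and -1.63, and Morc3 at -1.72, -0.59 and -0.16.

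Conditioning was followed at 4 times to ask which mRNAs or footprints changed. None of the 55 Zfp genes passed the test at any time, in footprints, in RNA or in their ratio. By limma, 0 of 55 were called in each of the 12 comparisons with control (smallest Benjamini-Hochberg adjusted p = 1), where 0.0% of all genes were called in each. Of the 55, the numbers at an unadjusted p under 0.05 in footprints were 0, 0, 0 and 1 at 5, 10 and 30 min and 4 h. The shares of all genes were 0.646, 0.329, 0.253 and 0.532%. In RNA they were 0, 4, 2 and 2, against 1.04, 1.86, 1.46 and 2.59%. In the ratio they were 2, 2, 0 and 0, against 0.704, 0.817, 0.225 and 0.619%. The F-tests over all times called 0 in each kind (0.0% of all genes), with 1 Zfp gene at an unadjusted p under 0.05 in footprints (Zfp189), 1 in RNA and 1 in the ratio (Zfp592 in both), where 0.393, 0.546 and 0.253% of all genes were. The fits so far leave differences between replicate numbers in their spread. They therefore had limited power, and 0 calls do not show that nothing changed. With the replicate number as a block, 0 of 55 were called in each of the 12 comparisons, but more were at an unadjusted p under 0.05. In footprints these were 1, 0, 0 and 1, against 6.89, 3.28, 2.76 and 6.04% of all genes. In RNA the block gave 4, 10, 9 and 9, against 6.6, 12, 10 and 16.3%. In the ratio it gave 6, 10, 4 and 5, against 5.59, 5.7, 2.42 and 6.35%. A voom fit on the recovered reads also called 0 Zfp genes throughout. The 141 Zfp genes past the filter in RNA, and the 57 past it in footprints, also gave 0 at every time.

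Shifts from control were small. In RNA, 42, 47, 48 and 41 of the 55 had higher means than control at 5, 10 and 30 min and 4 h, against 60, 71, 71.6 and 66.2% of all genes. The median log2 changes were 0.04, 0.06, 0.05 and 0.03, against 0.01, 0.03, 0.03 and 0.03 for all genes. In footprints, 22, 23, 32 and 23 had higher means (47.3, 50.3, 60.8 and 51.2% of all genes), with medians between -0.02 and 0.01. The ratio had lower means in 41, 45, 45 and 41 of the 55, where 56.1, 67.9, 60.2 and 60.1% of all genes did, with medians of -0.04, -0.06, -0.04 and -0.06, against -0.01, -0.03, -0.02 and -0.02. All 4 times share the same 3 control libraries of each kind, so these counts are not independent of each other. The widest departure of any Zfp gene in the 12 comparisons was -0.24 on the log2(signal + 1) scale, which understates the change of genes with low signal.

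**Figure D4:**
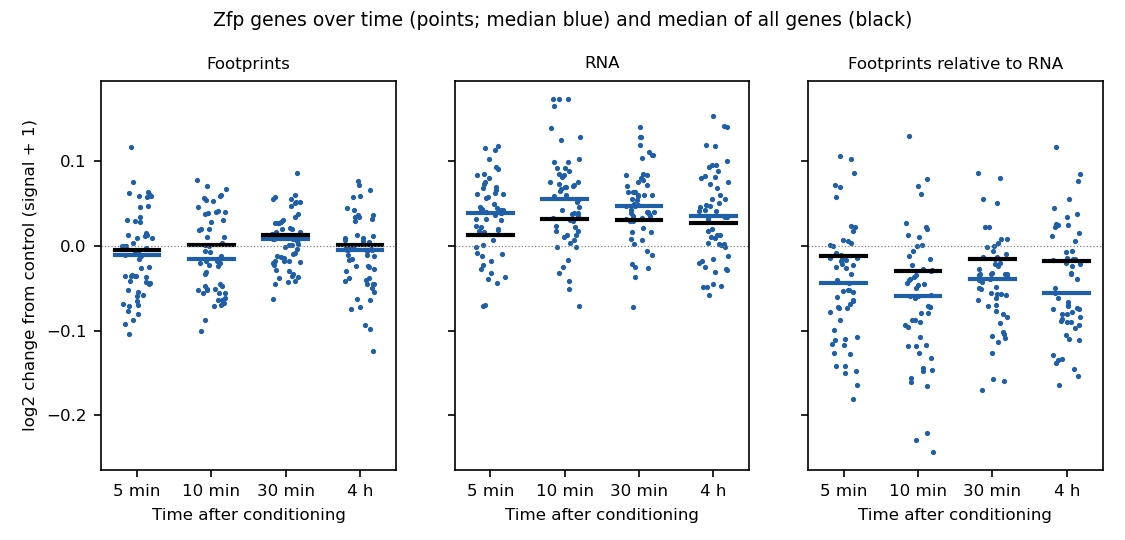
Log2 change from control (log2(signal + 1)) of the 55 Zfp genes at each time, in footprints, RNA and footprints relative to RNA; blue bars are their medians and black bars the medians of all genes tested. Points lie between -0.24 and 0.17 and the medians within 0.06 of 0.

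The values nearest to a change were these, none past the threshold. The SEs and adjusted p-values given for them come from the fit without the replicate block. With the block, the smallest limma adjusted p of any of the 55 at 10 min was 0.159 in RNA and 0.203 in the ratio. At 4 h in RNA it was 0.138. By limma's F-test over all times with the block, Zfp106 had an adjusted p of 0.411 in RNA and 0.496 in the ratio. The RNA signal of Zfp106 was 27.0 ± 1.05 in controls (SD, n = 3; 26.2 to 28.2) and 30.5 ± 0.75 at 10 min (29.9 to 31.4), without overlap. The log2 difference was 0.17 (SE 0.06, adjusted p = 1 by limma). Its footprint signal went from 4.59 ± 0.22 to 4.33 ± 0.26, with overlap, and its ratio by -0.24 (SE 0.08, adjusted p = 1). Zfp592 had RNA signals of 1.57 ± 0.08 in controls and 1.90 ± 0.08 at 10 min, also without overlap (log2 change 0.17, SE 0.05), and a ratio change of -0.23 (SE 0.07). At 30 min both genes overlapped the controls in RNA, and Zfp592 also did so at 5 min and 4 h. Zfp106 did not at 5 min (28.6 to 30.0) or at 4 h (28.5 to 29.1), and at each time its RNA signal was above the same-numbered control for 3 of 3 numbers. Such a rise was not particular to Zfp106: 16, 24, 18 and 17 of the 55 had it at 5, 10 and 30 min and 4 h. At 10 min, 9 of the 55 did not overlap the controls in RNA. The shares over all genes were not counted, so neither count is read as a trait of the Zfp genes. Higher RNA means than control were seen in 60, 71, 71.6 and 66.2% of all genes at the 4 times. Zfp189, a KRAB gene studied as a CREB target in frontal cortex, had footprint signals of 1.05 ± 0.12 in controls and 0.874 ± 0.034 at 4 h, without overlap, a log2 change of -0.12 (SE 0.05, adjusted p = 1). Its RNA signal was 2.04 ± 0.24 and 1.98 ± 0.19. Other genes with the smallest p-values were Zfp369 and Zfp281 in RNA at 30 min (0.14 and 0.13, higher) and Zfp260 and Zfp711 at 4 h (0.14 and 0.15, higher). Of the 16 corepressor genes, 14 were measured in footprints and 12 in RNA and in the ratio, and 0 were called at any time.

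Many Zfp genes differed between replicate numbers, the label that same-numbered libraries of the 5 groups share. By limma's F-test over the 3 numbers (adjusted p under 0.05), 35 of the 55 differed in footprints (63.6%, where 73.1% of all genes did). In RNA 30 did (54.5%, where 65.5% of all genes did). The genes were not matched on signal, and log2(signal + 1) understates differences of genes with low signal. The lower Zfp shares are therefore not read as a trait of these genes. Zfp706 had RNA signals of 13.8 to 14.9 in the 5 libraries numbered 1, 14.2 to 16.2 in those numbered 2 and 19.1 to 19.6 in those numbered 3 (adjusted p = 2.60e-10). Its footprint signal was 13.3 to 13.9, 15.2 to 18.5 and 16.9 to 18.7. Number 3 thus stood apart in RNA and number 1 in footprints. Zfp609 had RNA signals of 1.55 to 1.73, 1.06 to 1.36 and 2.10 to 2.57 for numbers 1, 2 and 3, without overlap (adjusted p = 1.56e-11), but footprint signals of 1.18 to 1.32, 1.12 to 1.37 and 1.06 to 1.18 (adjusted p = 0.0576). The wide spread of its ratio in controls (-0.48, 0.33 and -0.80) follows from these values. Zfp771 had footprint signals of 1.22 to 1.32, 1.82 to 2.14 and 1.42 to 1.58, without overlap, and Zfp644 had 3.10 to 3.47, 2.51 to 2.73 and 2.67 to 3.00. Zfp664 had RNA signals of 3.96 to 4.46, 4.0 to 4.5 and 5.12 to 5.50. The choroid plexus markers moved with the number as given above, and their part in these differences was not tested. Their RNA sum also differed between groups. It was 774 in the control numbered 1 and 508 to 589 in the conditioned libraries of that number. For number 2 it was 691 against 304 to 618, and for number 3 it was 70.8 against 28.7 to 199. Their part in the comparisons with control was not tested either.

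**Figure D5:**
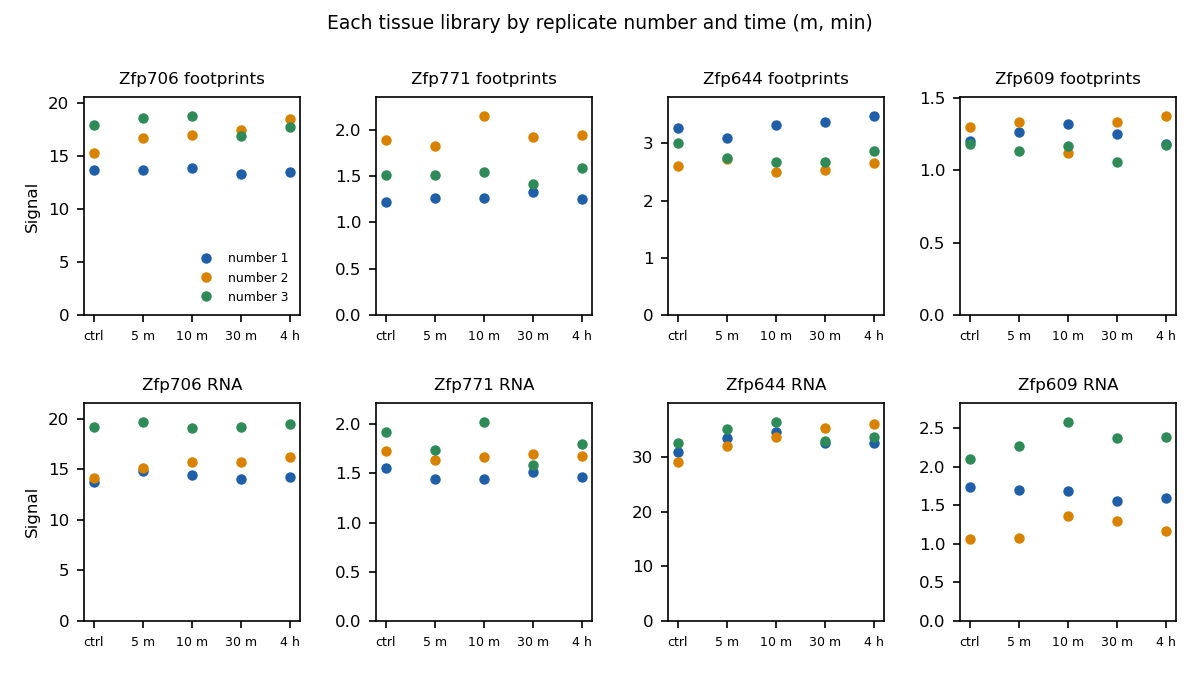
Signal of Zfp706, Zfp771, Zfp644 and Zfp609 in each tissue library (top, footprints; bottom, RNA), by group along the x axis and by replicate number in colour. Colours separate within every group for Zfp609 RNA and Zfp771 footprints, whereas the 5 groups of one colour lie level.

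Some Zfp genes lie side by side in the genome. In RefSeq order (GRCm38.p6), 15 of the 55 members (27.3%) had another Zfp gene as a direct neighbour, against 118 of the 243 listed in tissue (48.6%). The median ratio in control tissue was -0.57 for the 15 and -0.71 for the other 40. Over the 243 it was -0.98 for the 118 beside another Zfp gene and -0.90 for the 125 apart, and their median RNA signals were 0.98 and 1.35. In the stem cells the medians were -0.53 over the 111 of the 118 listed there and -0.37 over 112 of the 125. The effect of shared sequence on these values was not tested.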

How the data were processed

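Ribosome footprints and RNA were read from the authors' deposited tables, 2 for tissue and 1 each for the culture and the stem cells. The submitters' processing notes name CASAVA 1.8.2, Bowtie 1.1.1 and the mouse build mm9. The deposited signal is whole reads divided by 1 number per library, within 0.001 reads for every value. The meaning of that number, the part of a transcript counted in each kind, strand, and the treatment of reads matching several genes remain not given in the sources used here. Per the file headers, the authors also deposited log2 ratios of each time to control, which were not used here.

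Tests used limma 3.58.1 in R 4.3.3 (lmFit, eBayes with trend) on log2(signal + 1) with all 5 tissue groups, keeping genes whose mean reached 1 (7898 in footprints, 8061 in RNA, 7103 in both). Tests were 2-sided with Benjamini-Hochberg adjustment over all these genes and a threshold of 0.05. The footprint to RNA ratio was compared over time as the interaction of kind and group. Its level in controls used log2(signal) with no pseudocount, each library centred on its median gene. Intervals for culture and stem cells are 95% exact binomial intervals on the 2 read counts and cover counting error only.

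The design assumed that count models might be run on recovered reads. Those were not run because the values are not raw counts, and limma's voom on the recovered reads was added after seeing the data. Same-numbered libraries of different groups deviated together in every pair (lowest correlation 0.402 in footprints and 0.268 in RNA), so the numbers pair the samples, and a fit with the number as a block was run for each test. The fits were tested on simulated data, with results that are not reported here.

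Members and lists were chosen with earlier results of these data known. Genes named are, by a fixed rule, the smallest p-values of each comparison, the highest and lowest ratios and RNA signals per source, the largest differences between tissue and stem cells, and a list of genes with known roles. A count of fingers per protein was not made here.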

Additional observations from a re-analysis of the deposited data

Results flagged for a closer look

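For 9 of the 50 tissue members listed in the stem cells, all 3 control tissue replicates had a footprint to RNA ratio below that of the median gene, while the 95% counting interval of the stem cell value lay above it. These were Zfp346 (1.11 in the stem cells), Zfp444 (0.99), Zfp84 (0.80), Zfp664 (0.74), Zfp281 (0.71), Zfp592 (0.46), Zfp655 (0.36), Zfp318 (0.17) and Zfp277 (0.10), on the log2 scale with the median gene at 0. Their control tissue levels ran from -0.12 for Zfp346 to -0.88 for Zfp318. In the culture 5 of 54 did so: Zfp622 (0.65), Zfp536 (0.42), Zfp444 (0.26), Zfp369 (0.20) and Zfp281 (0.20). Zfp281 and Zfp444 were in both lists. Over all genes of the tissue filter, 7.7% did so in the stem cells and 2.75% in the culture. Counting only genes with all 3 controls below the median gene, the stem cell shares were 23.1% of members and 18.8% of all genes. In the culture these shares were 11.9 and 6.81%. Only 5 members had all 3 controls above the median gene (4 of them listed in the stem cells). Of these, 0 crossed in the opposite direction, against 21.9% of such genes over the table in the stem cells and 7.04% in the culture. So few members cannot show a difference from those shares. The intervals of Zfp281 in the culture (from 0.0022) and of Zfp277 in the stem cells (from 0.0076) only just left out 0. The difference between sources was not tested, since culture and stem cells have 1 library of each kind.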

How the results depend on the processing

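Over time, the 15 comparisons gave 0 Zfp genes called in all 186 combinations of comparison and alternative setting (replicate left out, pseudocount of 0.1, no filter, TMM scaling, block, and, added after seeing the data, voom and the block combined with voom or with no filter). With the replicate block the smallest adjusted p of a Zfp gene was 0.138 (RNA, 4 h), and pairing by number changed no call of a Zfp gene over time. No such combination called more than 19 genes of the whole table (RNA, F-test, no filter with the block). The planned count models were not run. In control tissue the median ratio of -0.71 became -0.43 with a pseudocount of 1, -0.77 when centred on library totals, and, in settings added after seeing the data, -0.94 with no filter, -1.12 with a filter on RNA only and -0.83 over genes passing in all sources. Leaving out a control replicate gave -0.72 to -0.66. Centring on totals moves every gene by the same amount, -0.07 in tissue, -0.21 in the culture and -0.16 in the stem cells. The 5 members above the median gene became 3 with library totals and 3 to 4 without 1 control replicate (3 without control replicate 2), and the 39 below it 36 to 38, or 42 with the replicate block. In the culture the median of -0.33 became -0.19 with a pseudocount of 1, -0.54 with library totals, -0.54 with no filter, -0.56 over genes passing in all sources and -0.70 with a filter on RNA only. In the stem cells -0.22 became -0.38 with library totals, -0.39 with no filter, -0.39 over genes passing in all sources and -0.48 with a filter on RNA only. With no filter, 90 of 243 Zfp genes in footprints (37%, against 64.2% of all genes) and 82 in RNA (33.7% against 55.7%) differed between replicate numbers. Depth limits the rarest genes: the median listed Zfp gene held 125 reads in the shallowest footprint library.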
